A study of Gallus gallus with 10 samples.

Results

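Among genes of the lysosome, 8 are described here: the sulfatases ARSK and ARSB, the hexosaminidase subunit HEXA and the N-acetylglucosaminidase NAGLU, the cathepsins CTSV, CTSD and CTSB, and the membrane protein LAMP1. They were chosen by name, as every probe set whose gene symbol is one of these 8, which gave 12 probe sets of 38439 and 8 genes of 13051. ARSK, NAGLU and CTSV were picked for their sex pattern in these same arrays, from values of the same male minus female contrast, so their sex differences are given as a description with no test. ARSK, ARSB and CTSV lie on the Z chromosome and the other 5 on autosomes. The samples were total RNA of dissected whole brain from chicken embryos, of which 5 were male and 5 female, and each was hybridised to an Affymetrix chicken array of its own. Male birds carry ZZ and females ZW sex chromosomes, and the comparison asks how RNA levels in the brain differ between them. The labels name no allele, agent or dose, and give neither the age or breed of the embryos nor how many stand behind a sample. The p-values therefore cover only the scatter between these arrays, part of which may be technical.

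The lysosome is the acidic compartment in which cells break down proteins, lipids and sugar chains. Sulfatases remove sulfate groups from glycosaminoglycans, the long sugar chains of the cell surface and matrix, exo-glycosidases such as HEXA and NAGLU take off single sugars, and cathepsins are the main lysosomal proteases. In humans, loss of many of these enzymes causes storage diseases, and the brain is often affected. Birds are not known to silence a whole Z chromosome in males, and many of their Z genes are known to have more RNA in males.

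Levels are deposited linear intensities, and differences are male minus female on the log2(intensity + 16) scale with limma's standard error (SE). Values of different probe sets are not set against each other, since each probe set has its own response. A gene is called expressed here if its mean log2 level was at least 9.33 (an intensity of 626), the median of all tested probe sets. HINTW, a W-linked gene, checked the labels: its mean over 5 arrays was 188 ± 179 (SD) for males and 108155 ± 11380 (SD) for females, with no overlap. Array medians ran from 593.7 to 676.9 in males and from 640.6 to 720.8 in females. Pairwise correlations across probe sets ran from 0.918 to 0.946. Summed neuronal markers (10 of 10 measured, 9 expressed) ran from 430525 to 515313 in males and from 438956 to 474752 in females. Of these markers 7 had a positive difference and 0 passed the test. Summed microglial and leukocyte markers (10 of 13 measured, 7 expressed) ran from 19708 to 22179 in males and from 19365 to 22528 in females. Here 5 differences were positive and again 0 passed. Choroid plexus markers (7 of 7 measured) summed to 117609 to 152106 in males and 135822 to 161901 in females, with 1 difference positive and 0 passing. Red cell markers (5 of 10 measured) summed to 216199 to 257519 in males and 238240 to 270843 in females, again with 1 positive and 0 passing. Over all 13051 genes 44.4% had a positive difference, 1.59% passed in the male direction and 0.207% in the female direction. With lists this short, 0 passing is near those shares and does not show equal amounts of these cells. The median differences were 0.04 for neuronal, -0.05 for microglial and leukocyte, -0.15 for choroid plexus and -0.12 for red cell markers. The part of these cell types in the lysosomal values was not tested. In such whole-tissue RNA, fewer cells of a type and less RNA per cell cannot be told apart.

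ARSK encodes arylsulfatase K, which removes a sulfate from glucuronate units of glycosaminoglycans. Its intensity on the 5 male arrays was 2250, 2289, 2292, 1878 and 1726, and on the 5 female arrays 887, 680, 1062, 1079 and 1230. Every male array was above every female array, an order seen in 252 of the 449 expressed Z genes. The difference was 1.09 (SE 0.16), a male to female ratio of 2.12. Of the 449 expressed Z genes, 439 (97.8%) had a smaller difference than ARSK. ARSK has a single probe set, whose identifier marks that it may read more than 1 transcript.

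ARSB encodes arylsulfatase B, which acts on dermatan sulfate and chondroitin sulfate. Its intensity was 1794, 1530, 1485, 1905 and 1579 on male arrays, and 1444, 1091, 1265, 1022 and 1437 on female arrays. The groups did not overlap, although the lowest male and the highest females were close. The difference was 0.41 (SE 0.12, 95% interval 0.14 to 0.68), a ratio of 1.33, and it did not pass the test over all genes (limma adjusted p = 0.254). That the males lay above all females is common on this chromosome. This order was seen in 41.8% of 612 measured Z genes and in 252 of the 449 expressed ones. The share of 12395 autosomal genes was 0.194%. Of the expressed Z genes 198 of 449 (44.1%) had a smaller difference than ARSB, so its difference ranked near the middle of theirs.

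The remaining lysosomal sulfatases measured were autosomal, and their 6 genes with the activator SUMF1 had a median difference of -0.06, with 1 positive. ARSA, which desulfates sulfatide, differed by -0.10 (SE 0.13), IDS, the iduronate sulfatase, by -0.05 (SE 0.06), and SGSH, which acts on heparan sulfate, by -0.06 (SE 0.21). None of these 6 passed the limma test over all genes, and 0 had an unadjusted p under 0.05.

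**Figure D1:**
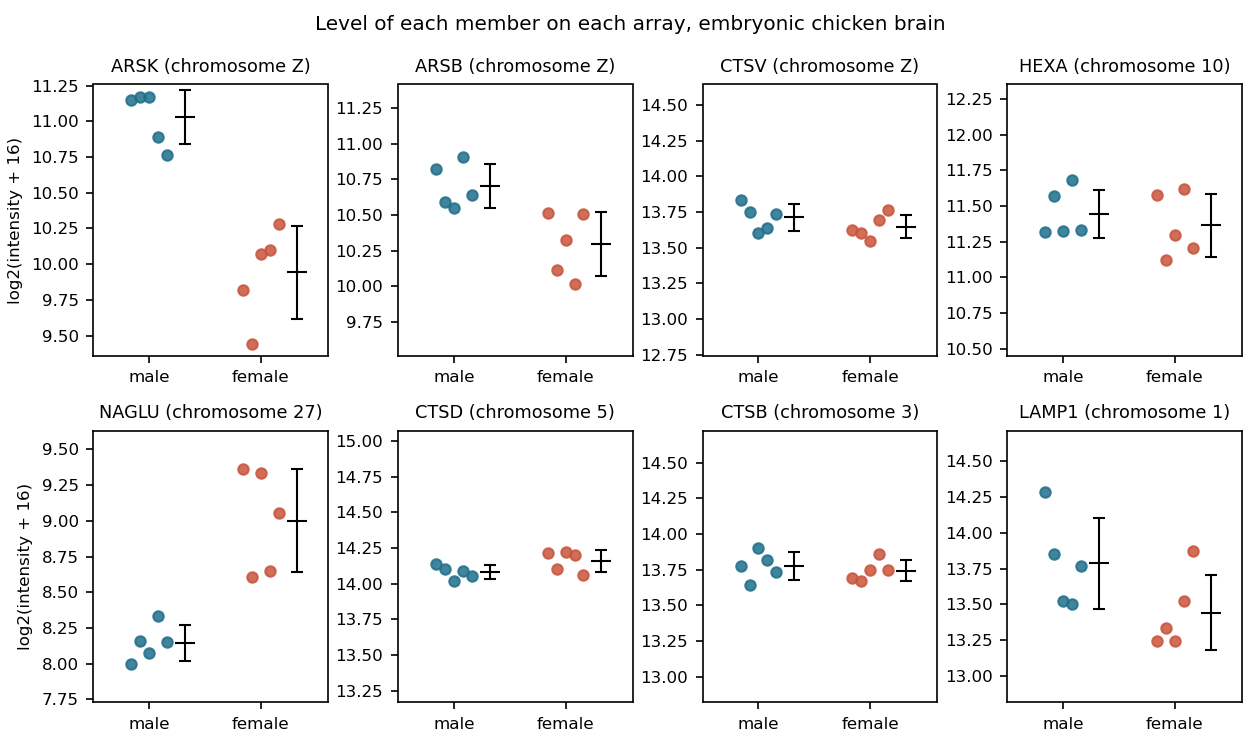
Level of each of the 8 genes on each array as log2(intensity + 16), males left and females right, with the mean and SD of 5 arrays beside the points. All panels have the same height in log2 units but start at different levels. ARSK and ARSB lie higher in every male, NAGLU lies higher in every female, and the other 5 overlap between the sexes.

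HEXA encodes the alpha subunit of beta-hexosaminidase, the enzyme that degrades GM2 ganglioside in neurons. The brighter of its 2 probe sets gave 2539, 3030, 2546, 3265 and 2565 in males, and 3038, 2212, 2503, 3128 and 2347 in females. The sexes overlapped across their range. The difference was 0.08 (SE 0.12, 95% interval -0.20 to 0.36, limma adjusted p = 0.939), so a change of up to 1.28-fold in the male direction lies within the interval. The other HEXA probe set averaged 2002 ± 253 over the male arrays and 2083 ± 269 over the female arrays (SD, n = 5 each), and differed by -0.06 (SE 0.12). The 2 probe sets, both of the kind that may read more than 1 transcript, correlated at 0.15 over the 10 arrays after each value was set against its own sex mean.

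NAGLU encodes the enzyme that removes terminal N-acetylglucosamine from heparan sulfate. Its probe set bears this name in the platform annotation, but the gene ID given there was not found in the reference gene table, so its identity and its place on chromosome 27 rest on the symbol alone. Its intensity was 240, 269, 254, 307 and 269 in males, and 641, 374, 629, 386 and 516 in females. Every female array was above every male array, and the female values were the more scattered, with a mean of 268 ± 25.1 over the male arrays and 509 ± 128 over the female arrays (SD, n = 5 each). The difference was -0.86 (SE 0.16), a ratio of 0.552. NAGLU's mean log2 level of 8.57 was below the expressed level and above the median of 6.16 of 689 virus probe sets, which read no chicken gene. Those virus probe sets had a median difference of -0.18, and the part of background in the NAGLU value was not tested. Among autosomal genes, 0.67% had every female above every male. A more negative difference than NAGLU's was found for 398 of the 12395 autosomal genes (3.21%).

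NAGLU acts in the heparan sulfate pathway together with HGSNAT and SGSH. HGSNAT, which acetylates the chain end before NAGLU cuts, differed by 0.09 (SE 0.10), with a limma adjusted p of 0.915. GM2A, the activator that presents GM2 to hexosaminidase A, differed by -0.28 (SE 0.23, adjusted p = 0.877). Neither passed the threshold, and whether either differs from NAGLU was not tested.

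CTSV, a cysteine protease of the cathepsin L type, is the remaining Z-linked gene of the 8. Its intensity was 14610, 13744, 12412, 12733 and 13628 in males, and 12618, 12442, 11982, 13249 and 13864 in females. The sexes overlapped, with 1 male above the highest female. The difference was 0.06 (SE 0.07), a ratio of 1.05. Of the 449 expressed Z genes, 45 had a smaller difference.

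CTSD encodes the main aspartic protease of the lysosome, and its probe set with the highest mean gave 18015, 17593, 16567, 17445 and 16957 in males, and 19007, 17562, 19078, 18815 and 17042 in females. Of the females, 3 exceeded the highest male. The difference was -0.08 (SE 0.06, 95% interval -0.21 to 0.05, limma adjusted p = 0.859). A second CTSD probe set differed by -0.02 (SE 0.09). The dimmest averaged 125 ± 46.0 over male arrays and 158 ± 116 over female arrays (SD, n = 5 each).

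CTSB, a cysteine protease with both endopeptidase and exopeptidase activity, gave 14025, 12750, 15297, 14450 and 13604 in males, and 13237, 12998, 13726, 14834 and 13760 in females. The sexes overlapped. The difference was 0.03 (SE 0.07, 95% interval -0.12 to 0.18, limma adjusted p = 0.961). The second probe set differed by -0.05 (SE 0.09), so the direction depended on which was read. As male to female ratios, the 95% intervals were 0.866 to 1.04 for CTSD and 0.921 to 1.13 for CTSB.

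LAMP1 encodes a heavily glycosylated protein of the lysosomal membrane and is widely used to mark the compartment. Its intensity was 19927, 14793, 11773, 11565 and 13936 in males, and 9676, 10297, 9696, 11729 and 14961 in females. Male replicate 1 and female replicate 5 were the highest of their sex. The difference was 0.34 (SE 0.18, 95% interval -0.05 to 0.74, limma adjusted p = 0.751), and it was 0.22 without male replicate 1 and 0.45 without female replicate 5. Of the 8816 expressed autosomal genes, 8720 (98.9%) had a smaller difference than LAMP1.

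**Figure D2:**
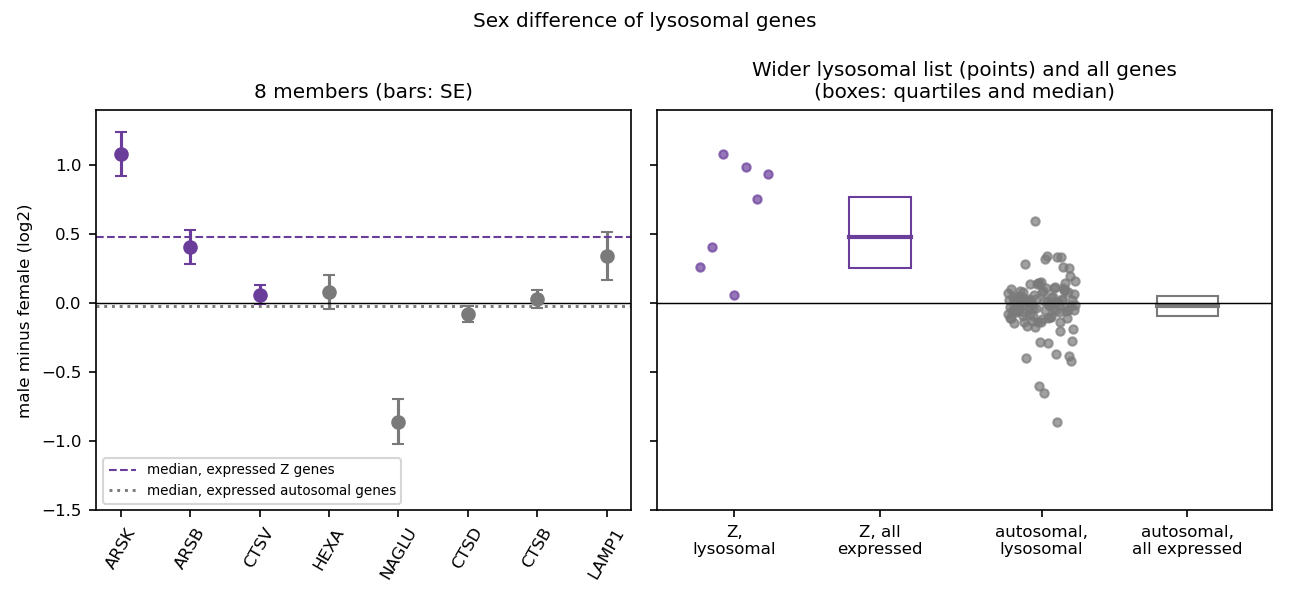
Male minus female difference (log2) of the 8 genes with SE (left), and of the 7 Z-linked and 114 autosomal genes of a wider lysosomal list as points beside boxes of all expressed Z and autosomal genes (right). Dashed and dotted lines are the medians of expressed Z genes, 0.48, and of expressed autosomal genes, -0.02. ARSK lies above the Z box, CTSV below it and NAGLU lowest of the autosomal points.

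The 3 Z-linked genes had a median difference of 0.41, which is ARSB's own value, since the picked ARSK lies above it and the picked CTSV below. The 5 autosomal genes, with the picked NAGLU among them, had a median of 0.03. Both medians are descriptions of a chosen set. Over all measured genes the medians were 0.40 for 612 Z genes and -0.03 for 12395 autosomal genes. A wider list of 139 lysosomal genes in 10 groups was used to set the 8 in context. Of these 139, 121 were measured, 7 on Z and 114 on autosomes. This list was also drawn up with earlier results of these data known. The 7 Z-linked genes had a median difference of 0.76 and all 7 were positive, as were 82.0% of all Z genes and 92.4% of the expressed ones. ARSK and CTSV, which were picked for this contrast, are among the 7, and the 4 outside the 8 genes had a median of 0.85. These 4 ran from 0.26 to 0.99, and the highest of them, IDUA, was below the expressed level. The median of the 7 was 0.45 without female replicate 3. It was 0.58 over the 6 of them that were expressed, against 0.48 over all expressed Z genes. The 114 autosomal genes had a median of -0.01, with 55 positive and 59 negative.

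Of the 4 Z-linked lysosomal genes outside the 8, TMEM175 and SLC38A9 were higher in males by limma over all genes, where 33% of all Z genes were. Of the 109 autosomal genes outside the 8, 0 passed in the male direction and 0 in the female direction, where the shares of all autosomal genes were 0.0403% and 0.113%. By the same test 4 of the 109 (3.67%) had an unadjusted p under 0.05, close to the 5.11% of all autosomal genes. No lysosomal Z gene was higher in females, where the share of all Z genes was 0.49%. ARSK and NAGLU, picked for this contrast, are left out of these counts. The list itself was drawn up with earlier results of these data known, so the counts are descriptions of a chosen set. The shares over all 13051 genes were 1.59% for the male direction and 0.207% for the female direction.

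The Z-linked genes outside the 8 were TMEM175, SLC38A9, IDUA and AP3B1. TMEM175, a cation channel of the lysosomal membrane, had 24432, 21045, 20257, 21120 and 22230 in males, and 9940, 10819, 10814, 12561 and 13044 in females. The sexes were far apart, with a difference of 0.94 (SE 0.09, limma adjusted p = 0.000465), a ratio of 1.91. Its probe set is of the same kind as that of ARSK. SLC38A9, an arginine sensor of the lysosomal membrane that signals to mTORC1, had 2146, 2156, 2612, 1922 and 2233 in males, and 1180, 1257, 1339, 1350 and 1376 in females. Here too every male was above every female, by 0.76 (SE 0.09, adjusted p = 0.00136), a ratio of 1.69. That order was seen in 252 of the 449 expressed Z genes.

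IDUA encodes the iduronidase of heparan and dermatan sulfate breakdown and was below the expressed level. Its brighter probe set gave 433, 529, 527, 345 and 524 in males, and 425, 362, 39.6, 304 and 272 in females. The difference of 0.99 (SE 0.51) did not pass (limma adjusted p = 0.758), was 0.45 without female replicate 3, and was -0.31 in the second probe set. AP3B1, a subunit of the AP-3 complex that carries cargo to lysosomes, differed by 0.26 (SE 0.16, adjusted p = 0.802). Its second probe set, with 2284, 2479, 2439, 2283 and 1609 in males, and 1266, 1446, 1128, 1453 and 1103 in females, differed by 0.78 with no overlap (SE 0.15, limma adjusted p = 0.04997 over all probe sets). The 2 AP3B1 probe sets thus gave values on both sides of the Z median. An order of all males above all females was seen in 41.8% of measured Z genes.

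On autosomes, the 4 measured genes of the hexosaminidase group, with the picked NAGLU among them, had a median difference of -0.10. The groups other than these and the sulfatases had median differences between -0.06 and 0.08. Single genes lay outside that range, some with wide errors. The 14 autosomal cathepsins and other lysosomal peptidases had a median difference of -0.01, with 6 positive and none past the limma test. TPP1, the tripeptidyl peptidase lost in a human ceroid lipofuscinosis, was nearest to it at -0.27 (SE 0.09, adjusted p = 0.418). It had 2444, 2394, 2730, 2734 and 3057 in males, and 3089, 3417, 3375, 3531 and 2747 in females. Male replicate 5 and female replicate 5 overlapped with the other sex. PRCP, a carboxypeptidase, differed by 0.34 (SE 0.17) and CTSH, a cathepsin with aminopeptidase activity, by 0.14 (SE 0.09), and neither passed.

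Among the 12 autosomal glycosidases the median was 0.01, and 0 passed. GLA, the alpha-galactosidase of glycolipid breakdown, differed by -0.60 (SE 0.26, limma adjusted p = 0.632) in the brightest of its 3 probe sets. Its dimmer probe sets differed by -0.96 (SE 0.47) and -0.32 (SE 0.54). HYAL1, a hyaluronidase, differed by -0.65 (SE 0.33, adjusted p = 0.754), and FUCA1, a fucosidase, by -0.17 (SE 0.11). These are sizes with wide errors.

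The 15 subunits of the V-ATPase, the proton pump that acidifies the lysosome, had differences between -0.14 and 0.09 with a median of 0.01. ATP6AP1, ATP6V0B and ATP6V1C1, the members with the largest difference for their error, differed by -0.14 (SE 0.09), -0.06 (SE 0.06) and 0.09 (SE 0.09). The 20 autosomal membrane proteins had a median of -0.02. CTNS, the cystine transporter, differed by -0.16 (SE 0.08), and SCARB2, the receptor that carries glucocerebrosidase, by 0.15 (SE 0.07). By limma, 0 genes of either group on autosomes passed.

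The lipid-handling group of 8 had a median of -0.06. PPT1, the palmitoyl-protein thioesterase, differed by -0.20 (SE 0.13) and in its other probe sets by -0.07 and 0.11. ACP2, an acid phosphatase, differed by -0.08 (SE 0.10), and the cholesterol carrier NPC2 by -0.06 (SE 0.09). Of the 4 cathepsin inhibitors the secreted inhibitor CST3 differed by -0.14 (SE 0.10), CSTA by -0.40 (SE 0.36) and CSTB by 0.03 (SE 0.06). The 19 autosomal sorting genes had a median of 0.03. Among them VPS16, a tethering subunit, differed by -0.19 (SE 0.10, with -0.15 and 0.04 in its other probe sets), NAGPA, which uncovers the mannose 6-phosphate tag, by 0.34 (SE 0.18), and AP3M1, a further AP-3 subunit, by 0.10 (SE 0.07).

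The 12 genes of lysosomal control had a median of 0.08. RPTOR, the mTORC1 subunit that brings the kinase to the lysosome, differed by 0.26 (SE 0.11, limma adjusted p = 0.604) in the probe set with the highest mean. Its other probe sets differed by 0.13, -0.03, -0.12 and -0.12, so they did not share a direction. The transcription factors MITF and TFEB differed by -0.37 (SE 0.16, adjusted p = 0.617) and by 0.25 (SE 0.15, adjusted p = 0.810). The MITF value is that of the brightest of its 5 probe sets, and the others are not given. None passed over all genes.

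**Figure D3:**
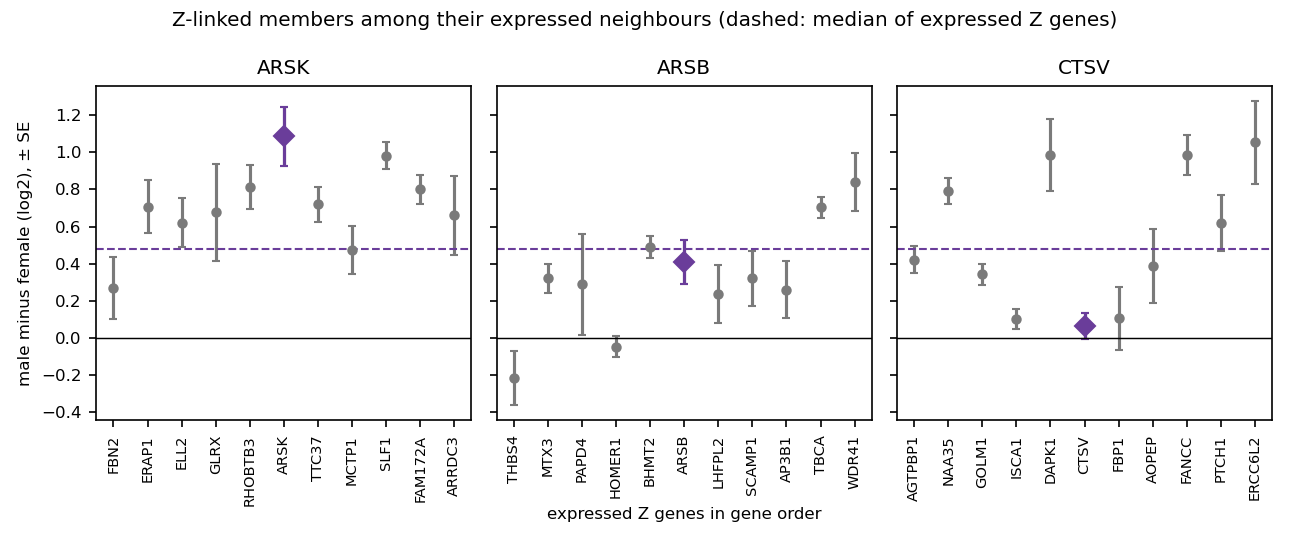
Male minus female difference (log2, with SE) of ARSK, ARSB and CTSV (diamonds) and of the 5 expressed genes on each side in Z gene order (circles). The dashed line is the median of expressed Z genes, 0.48. ARSK is above all 10 of its neighbours, ARSB lies among them and CTSV is below all 10.

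The 3 Z-linked genes were also placed among their neighbours, the 5 expressed genes on each side in the gene order of the reference assembly. Around ARSK the 10 neighbours had differences from 0.27 (FBN2) to 0.98 (SLF1), with a median of 0.69. All 10 were positive, 6 passed the limma test, and 0 exceeded ARSK. Over all expressed Z genes, 92.4% were positive and 200 of 449 passed in the male direction. Around ARSB the neighbours ran from -0.21 (THBS4) to 0.84 (WDR41) with a median of 0.30, and 3 exceeded ARSB. Of these 10 neighbours 8 were positive and 3 passed the limma test. HOMER1, at -0.05, and THBS4 were the neighbours with no male excess.

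Around CTSV the 10 neighbours ran from 0.10 (ISCA1) to 1.05 (ERCC6L2) with a median of 0.52. Of them 5 passed the limma test, where 200 of the 449 expressed Z genes did. All 10 exceeded CTSV. The genes at its sides were DAPK1, at 0.99 (SE 0.19), and FBP1, at 0.11 (SE 0.17). FANCC, a little farther off, differed by 0.99 (SE 0.11). The low difference of CTSV and the high one of ARSK were among the values for which they were picked, and no test was made of either against its neighbours.

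Apart from sex, the 8 genes differed in how they varied between arrays. After each value was set against the mean of its own sex, CTSV and LAMP1 moved together over the 10 arrays, with Pearson's r of 0.946 (exact permutation within sex, two-sided p = 0.000903, 0.0253 after Benjamini-Hochberg adjustment over 28 pairs). Spearman's rho was 0.915 (exact permutation p = 0.0025, adjusted 0.0700), which missed the threshold after adjustment. Within males r was 0.959 and within females 0.928 (n = 5 each, a description). Without male replicate 1 and female replicate 5, the arrays farthest from the median, r was 0.911. Of the 28 pairs of the 8 genes this was the only one to pass, and the next, ARSB with NAGLU, had r of 0.715 (exact permutation, adjusted p = 0.884).

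**Figure D4:**
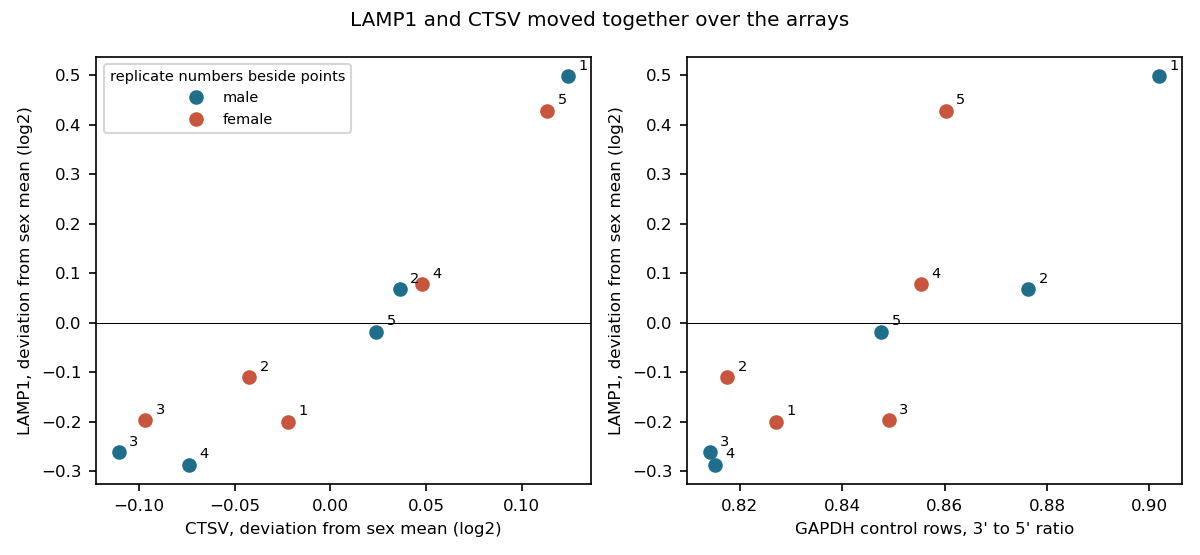
Deviation of LAMP1 from its sex mean (log2) on each of the 10 arrays against that of CTSV (left) and against the 3' to 5' intensity ratio of the GAPDH control probe sets (right). Numbers beside points are replicates. Male replicate 1 and female replicate 5 are high on both axes in each panel.

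Both genes also followed properties of the whole array. For these correlations each array measure was likewise set against the mean of its own sex. The deviations of LAMP1 correlated at -0.848 with array median intensity, at 0.854 with the 3' to 5' ratio of the GAPDH control probe sets and at 0.258 with that of actin. Those of CTSV correlated at -0.791, 0.815 and 0.241 with the same measures. With the median log2 level of the virus probe sets, the deviations correlated at -0.761 for LAMP1 and -0.673 for CTSV. Their correlation with the first principal component of the within-sex deviations, which held 22.2% of the variance, was 0.964 for LAMP1 and 0.974 for CTSV. Male replicate 1 had the lowest median intensity, 593.7, and the highest GAPDH ratio, 0.902, of the 10 arrays. These correlations are descriptions over arrays that share their scaling, and the part of these array properties in the LAMP1 and CTSV values was not tested.

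Many genes shared that course. Of the other 9286 expressed genes, 103 correlated with CTSV above 0.9 and 45 below -0.9, together 1.59%. For LAMP1 these were 111 and 62, together 1.86%. For the other 6 genes the share was between 0.0215% and 0.0969%. The genes most like LAMP1 over the 10 arrays were TMED5 (r = 0.983), SCAMP1 (0.981) and EPB41 (0.980), and those most like CTSV were HMGN2P46 (0.984), FBXO7 (0.970) and CIAPIN1 (0.968).

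For the other genes the closest were as follows, each by r over 10 arrays among expressed genes. ARSK was nearest to SMYD5 (0.947), TRPV2 (0.941) and AGPS (0.919), and ARSB to MYORG (0.906), HIBCH (0.885) and BCL2L1 (0.884). HEXA was nearest to EIF5 (0.926), TRMT5 (0.899) and CRISPLD2 (0.893), and NAGLU to GPR78 (0.955), GALNT15 (0.952) and PAN2 (0.925). CTSD was nearest to NELFA (0.918), EDARADD (0.891) and KLF2 (0.885), and CTSB to PNPLA2 (0.961), RPP38 (0.925) and PRIM1 (0.90). With 10 arrays and this many genes some high correlations are found for any gene, and these are given as values only.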

How the data were processed

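The deposited values are linear intensity values, 1 per probe set and array. How the authors summarised the probes, with which software and on which genome build, is not given in the sources used. A trimmed mean of the deposited intensities (2% off each end) came to 2500 for all 10 arrays, so they had been scaled before deposit. The number of arrays limits the precision.

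Of 38535 probe sets, 96 controls were left out. Values were taken as log2(intensity + 16) with no further normalization, which understates fold changes of dim genes. Genes were named through the platform annotation (27168 probe sets with 1 symbol, 177 with several, 11094 with none) and placed by a reference gene table of the assembly GRCg7b, 12872 by gene ID, 174 by symbol, and 5 not matched. NAGLU was placed by symbol, since its platform gene ID is not in that table. Each gene took its probe set with the highest mean. Among the listed genes, MITF has 5 probe sets and HYAL1, PRCP, NAGPA, FUCA1 and ACP2 have 2 each. For these only the value of the brightest is given. Sexes were compared by limma 3.58.1 (R 4.3.3; lmFit, eBayes), with Benjamini-Hochberg adjustment over all 13051 genes, or 38439 probe sets, and a threshold of 0.05. The script was tested on simulated data. Groups came from the sample descriptions, and male replicate 1 has no sex in its title.

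The 8 genes and the lists were chosen with earlier results of these data known. Named were the 8, all listed Z genes, all listed genes past the threshold, up to 3 expressed autosomal genes per list with the largest difference for their error, HINTW, and the 3 genes most correlated with each of the 8. Genes named among neighbours on Z, or for an array pattern, were chosen after their values were seen. Alternatives were quantile normalization, other pseudocounts, a filter on dim probe sets, the mean over probe sets, removal of cross-hybridising probe sets, array weights, a replicate block and leaving out each array.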

Additional observations from a re-analysis of the deposited data

How the results depend on the processing

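Directions held for ARSB, CTSD, HEXA and LAMP1 under the alternatives that gave them a value, and ARSB did not pass in any. ARSK (0.96 to 1.17), NAGLU and CTSV also kept theirs, but they were picked for this contrast, so this is a description. Without multi-transcript probe sets ARSK, HEXA and TMEM175 have no value, since all their probe sets are of that kind. NAGLU and IDUA have none with the filter on dim probe sets. CTSB turned to -0.011 with the mean over probe sets, and ran from -0.000475 (without male replicate 3) to 0.0651 with 1 array left out. NAGLU ran from -0.89 to -0.72 under the alternatives and from -0.96 to -0.77 with 1 array left out, given as sizes only. TMEM175 and SLC38A9, the listed genes outside the 8 that were higher in males, passed with any array left out (limma adjusted p up to 0.00237 and 0.00606). Under the other alternatives they passed where they had a value, except with the replicate block. Over all genes 234 passed, and 170 to 227 with 1 array left out. Over probe sets 307 passed, against 223 to 272 with 1 array left out and 176 without multi-transcript probe sets. AP3B1 passed only without those probe sets, where its second probe set stood for it, at 0.78 (limma adjusted p = 0.0275). The Z-linked lysosomal median of 0.76 was 0.58 with the filter, 0.52 with the mean over probe sets and 0.45 to 0.80 with 1 array left out, lowest without female replicate 3. The autosomal median of -0.0052 was -0.028 with the mean over probe sets, -0.026 without multi-transcript probe sets and -0.010 to 0.0041 with 1 array left out. The title letters B to E are shared by 4 males and 4 females. Their same-letter deviations correlated at 0.006 to 0.079, and those of differing letters at -0.07 to 0.071. All 4 same-letter values were positive and the highest was among them, and whether the letters mark pairs was not tested. With the letter as a replicate block, 0 listed genes passed in either direction, with 1 gene and 2 probe sets passing in all, TMEM175 at an adjusted p of 0.0867 and SLC38A9 at 0.144. The same 8 arrays without the block, added after seeing the data, gave 160 genes and 164 probe sets passing, and a LAMP1 difference of 0.17. There TMEM175 had a limma adjusted p of 0.00484 and SLC38A9 one of 0.0173. Their differences, 0.845 for TMEM175 and 0.731 for SLC38A9, were the same with the block and without it. Where no cause is named, the cause was not tested. NAGLU and IDUA were below the expressed level, and the part of background in their values was not tested.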
